A study of Mus musculus with 12 samples.

Results

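The proteasome genes of murine hip cartilage were taken as every probe of the normalized array table whose gene symbol was a proteasome subunit (Psma to Psmg followed by a number) or a proteasome activator (Psme1 to Psme4). This gave 63 probes for 39 gene symbols, out of 21004 probes for 15434 symbols. By role they fell into 5 genes of the outer alpha rings of the core particle (6 probes), 7 genes of its inner beta rings (12 probes), 5 genes of the immunoproteasome (8 probes), 5 ATPases of the regulatory particle's base (8 probes), 9 regulatory subunits that are not ATPases (16 probes), 3 further activators or inhibitors (5 probes) and 3 assembly chaperones (6 probes). The 2 remaining symbols were Psmc3ip, a meiotic recombination factor that is not a proteasome subunit, and Psme2b, a close relative of Psme2 whose probe may pick up both transcripts. Both matched the symbol rule and stay in the counts of 63 probes and 39 genes. A further 7 symbols of the family (Psma1, Psma6, Psma8, Psmb11, Psmc6, Psmd3 and Psmd6) had probes only outside the normalized table, and 18 of the 19 family probes left outside it were detected on no array. The exception was a Psmd11 probe detected on 1 array, WT injured replicate 3, where its signal was below that of WT control replicate 3.

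The proteasome is the protease that degrades proteins tagged with ubiquitin. Its core particle is a barrel of alpha and beta rings with the catalytic sites inside, and a regulatory particle binds ubiquitin, unfolds the substrate and opens the gate. Under interferon gamma, and constantly in many immune cells, the catalytic subunits Psmb5, Psmb6 and Psmb7 are exchanged for Psmb8, Psmb9 and Psmb10, and the activator formed by Psme1 and Psme2 caps the core. In cartilage the proteasome also limits the amount of signalling and transcription factors that respond to injury and to cytokines.

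RNA of femoral head cartilage from C57BL6 mice was hybridised to 12 Illumina mouse BeadChips, with 3 arrays in each of 4 groups. Wild type (WT) mice and mice labelled MAPK9 KO (written Mapk9 KO in the following) each gave control and injured hips. Mapk9 encodes the stress kinase JNK2. The ages given were 4 to 6 weeks in the labels and 5 to 6 weeks in the methods, and each replicate pooled 6 hips from 3 mice. The methods describe pulling the femoral head off as the injury itself and do so for both groups, after which control hips were frozen at once and injured hips were kept for 4 h in serum-free medium. The response to injury, the culture and the time since death therefore cannot be told apart. Values are log2 intensities, in which 1 unit is a 2-fold difference, and a probe was called changed when limma's adjusted p, corrected over all 21004 probes, was under 0.05. The threshold of the study, which also asks for a change of more than 2-fold, is named where it is used. Because a probe's brightness depends on its sequence, levels were compared between arrays at 1 probe and never between probes. Where a gene had several probes, the one with the highest mean over all arrays is called its brightest probe.

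Between 16930 and 18969 of the 45281 probes on an array were detected (detection p under 0.05), and 57 of the 63 proteasome probes were detected on all 12 arrays. Mapk9 at its brighter probe differed by -1.57 on the log2 scale between Mapk9 KO and WT control cartilage (adjusted p = 0.0151) but was still detected on all 6 Mapk9 KO arrays. At the other probe it was undetected on all 6. Markers of other tissues were detected beside those of chondrocytes. Of all probes of the table, 12.6% rose and 12.7% fell on injury in WT, and 19.0% rose and 19.3% fell in Mapk9 KO. Of 10 measured chondrocyte markers, 8 rose in each genotype (80.0%), and 11 of 14 skeletal muscle markers fell in WT (78.6%) and 14 of 14 in Mapk9 KO. None of these 14 was absent throughout, 11 being detected on all arrays. The mean muscle marker level ran from 10.70 to 12.47 in WT control, 8.02 to 9.97 in WT injured, 12.50 to 12.88 in Mapk9 KO control and 8.48 to 9.66 in Mapk9 KO injured arrays. Of 18 leukocyte markers, 10 rose (55.6%) and 2 fell (11.1%) in WT and 7 rose (38.9%) and 3 fell (16.7%) in Mapk9 KO. Of 6 erythroid markers 1 fell in WT (16.7%) and 2 in Mapk9 KO (33.3%), and of 6 endothelial markers 1 rose in each genotype (16.7%), so that the endothelial and WT erythroid shares were near those of all probes. The part of these shifts in the proteasome values was not tested, and in bulk RNA fewer cells of a type and less RNA per cell cannot be told apart.

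The probes that carry the main results are short stretches of the transcripts, and those of Psmd5 and Psmd9 are shown because these genes had the largest changes at a brightest probe. The pair of Psmb10 shows that this gene was read at separate places.
Psmd5 probe: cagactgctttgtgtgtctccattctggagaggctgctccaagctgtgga
Psmd9 probe: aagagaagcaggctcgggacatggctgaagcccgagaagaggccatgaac
Psmb10 brightest probe: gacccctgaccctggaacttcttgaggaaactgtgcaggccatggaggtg
Psmb10 other probe: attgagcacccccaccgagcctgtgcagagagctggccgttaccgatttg
The dim probes of Psmd2 are not separate readings. They share 42 of 50 bases, shown in capitals.
Psmd2 first dim probe: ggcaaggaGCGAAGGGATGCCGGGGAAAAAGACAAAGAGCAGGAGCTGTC
Psmd2 second dim probe: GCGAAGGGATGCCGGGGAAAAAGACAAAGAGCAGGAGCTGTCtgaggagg

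Few proteasome transcripts passed the test after injury, and most of those that did were lower. In WT cartilage, of the 63 probes 3 passed the test (4.76%), against 25.3% of all probes of the table. One rose (12.6% of all probes) and 2 fell (12.7%), and the fitted change of both was over 2-fold (7.14% of all probes passed this threshold downwards), although 1 of them, at a dim Psme4 probe, is only bounded, at 1.74-fold or more. In Mapk9 KO cartilage 11 of 63 passed (17.5%), against 38.3% of all probes. Of these, 1 rose (19.0% of all probes) and 10 fell (19.3%), and only Psmd9 changed more than 2-fold (9.14% downwards). With the replicate number as a block the rises became 3 in each genotype, and the falls stayed at 2 in WT and became 12 in Mapk9 KO, while 29.6% and 44.8% of all probes then passed in either direction. By the methods' t-test, adjusted in the same way, 0 proteasome probes passed in WT and 3 in Mapk9 KO, against 11.3% and 27.5% of all probes. Without background correction no fitted fall exceeded 2-fold (Psmd5 -0.57 and dimmer Psme4 probe -0.42 in WT, Psmd9 -0.65 in Mapk9 KO).

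Small changes could be bounded for most of the family. At the brightest probe the 95% interval of the injury change lay wholly within 2-fold either way for 34 of 39 genes in WT (87.2%) and 33 of 39 in Mapk9 KO (84.6%). Over all probes of the table the shares were 57.3% and 58.8%. The median change over all 63 proteasome probes was 0.07 in WT and -0.22 in Mapk9 KO on the log2 scale, where the median of all probes was -0.02 in both. The WT median was 0.01 without WT control replicate 3, 0.05 without WT injured replicate 2 and up to 0.11 on leaving out another array.

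**Figure D1:**
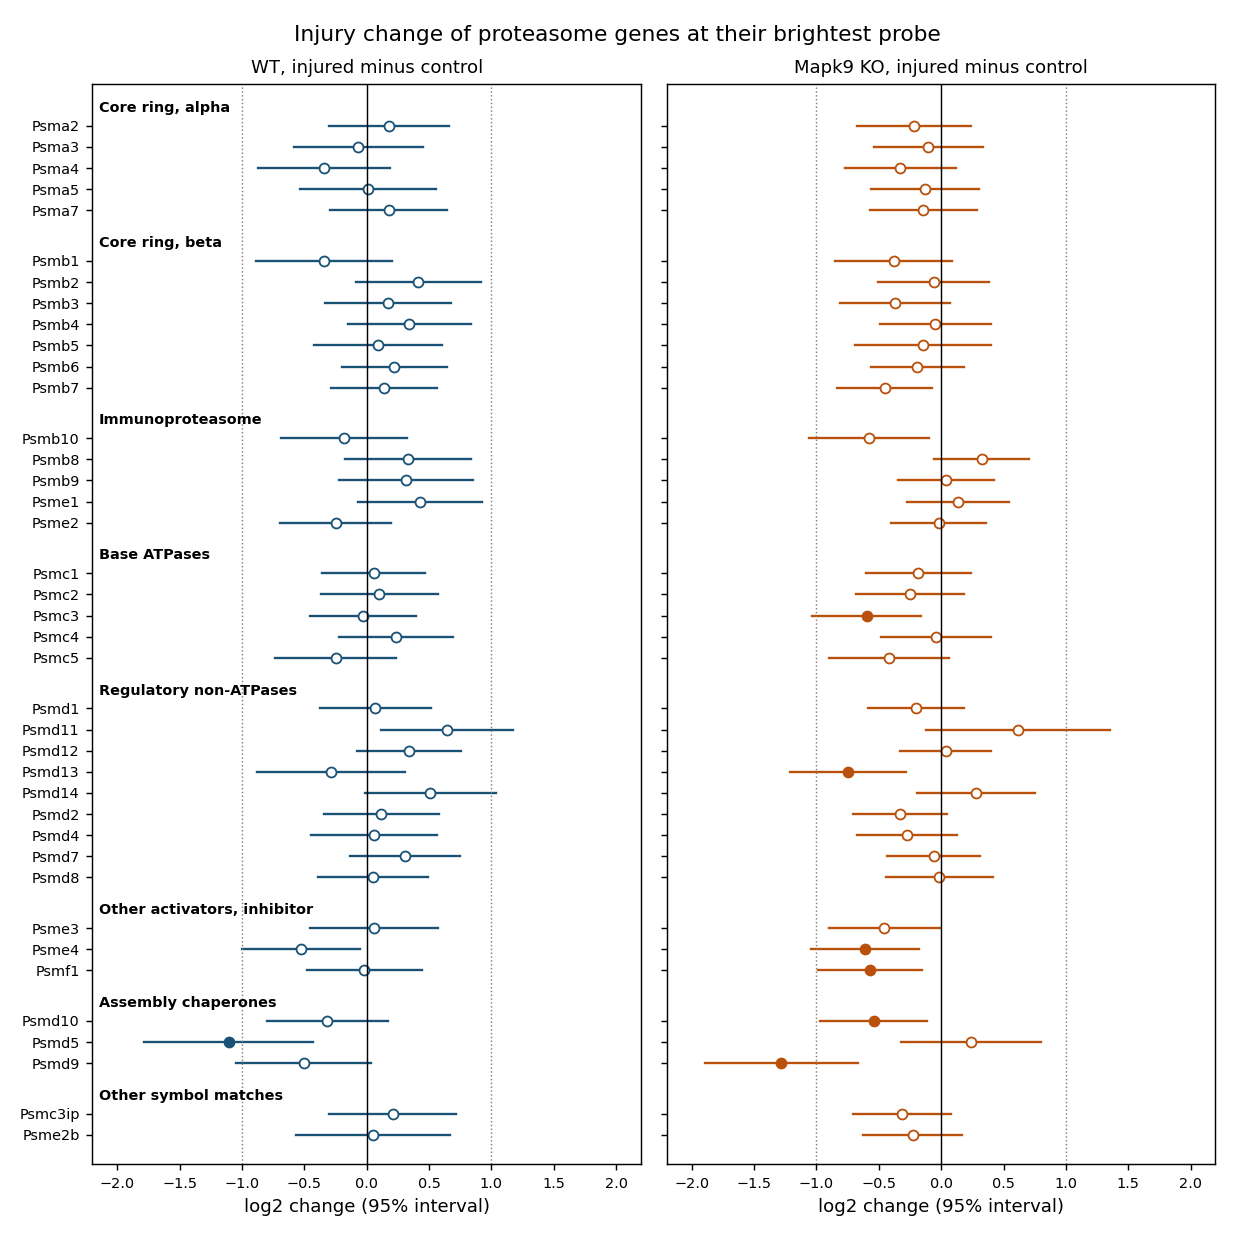
Log2 change from control to injured hips (horizontal axis) at the brightest probe of each of the 39 genes, by role, in WT (left, blue) and Mapk9 KO (right, orange), with lines for the 95% interval, dotted lines at 2-fold and filled points for an adjusted p under 0.05. One gene in WT (Psmd5, 2.56%) and 6 in Mapk9 KO (Psmc3, Psmd13, Psme4, Psmf1, Psmd10 and Psmd9, 15.4%) have filled points, all below 0. When 1 probe per gene was tested, 13.2% of all genes fell in WT and 20.8% in Mapk9 KO.

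The alpha rings form the outer gate of the core particle, and none of their 6 probes passed the test in either genotype. Psma7 stood at 11.70, 11.95 and 11.43 in WT control and 12.02, 11.72 and 11.87 in WT injured arrays. In Mapk9 KO it stood at 12.06, 12.20 and 11.67 in control and 11.76, 12.01 and 11.74 in injured arrays. The groups overlapped in both genotypes, and the changes were 0.18 ± 0.21 and -0.14 ± 0.19 (log2 ± SE, as for all changes given). At the brightest probes of the 5 genes the change ran from -0.35 (Psma4) to 0.18 (Psma2) in WT and from -0.33 (Psma4) to -0.10 (Psma3) in Mapk9 KO, and all 10 intervals lay within 2-fold.

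The beta rings hold the proteolytic sites of the core particle. Psmb5, with the chymotrypsin-like site, was 8.97, 9.26 and 9.51 in WT control and 9.04, 9.33 and 9.62 in WT injured arrays. In Mapk9 KO it was 9.05, 9.34 and 9.93 in control and 9.05, 9.25 and 9.59 in injured arrays. These groups overlapped, with changes of 0.09 ± 0.23 in WT and -0.15 ± 0.25 in Mapk9 KO, and either sign turned when single arrays were left out (-0.06 to 0.23 and -0.34 to 0.10). Between arrays of the same replicate number the difference was above 0 in 3 of 3 WT pairs (0.08, 0.07 and 0.11) and below 0 in 3 of 3 Mapk9 KO pairs (-0.01, -0.09 and -0.34). With the replicate number as a block neither passed the test (adjusted p = 0.725 and 0.448).

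Psmb6, with the caspase-like site, was 12.05, 12.03 and 11.85 in WT control and 12.10, 12.31 and 12.17 in WT injured arrays. It was 12.10, 12.13 and 11.97 in Mapk9 KO control and 11.77, 12.04 and 11.81 in Mapk9 KO injured arrays. In WT every injured array lay above every control array, in Mapk9 KO the groups overlapped, and neither the change of 0.22 ± 0.19 nor that of -0.19 ± 0.17 passed the test (adjusted p = 0.443 and 0.415). The WT value was 0.00087 with neqc (another background correction and scaling) and 0.000911 without background correction.

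Psmb7, with the trypsin-like site, was read by 4 probes that did not give a single answer. At the brightest it stood at 11.82, 12.12 and 11.81 in WT control and 11.99, 12.08 and 12.08 in WT injured arrays, a change of 0.14 ± 0.19 whose sign turned with neqc (-0.08). On leaving out single arrays the WT value ran from 0.09 to 0.24. In Mapk9 KO the brightest probe stood at 12.31, 12.40 and 12.24 in control and 11.76, 12.05 and 11.77 in injured arrays. This change of -0.45 ± 0.17 missed the test (adjusted p = 0.0586). All Mapk9 KO injured arrays were below all Mapk9 KO control arrays here, and the value passed the test with the replicate block (adjusted p = 0.0342).

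One of the dimmer Psmb7 probes fell in Mapk9 KO, by 0.53 ± 0.18 on the log2 scale (adjusted p = 0.0414). It read 11.71, 11.66 and 11.50 in control and 10.88, 11.34 and 11.08 in injured arrays, and lost the call without control replicate 1 or 2 or injured replicate 1 or 3 (-0.52 to -0.42). The dimmest Psmb7 probe gave the only proteasome rise in WT, from 9.43, 9.60 and 9.69 to 9.89, 10.44 and 10.36. That change of 0.66 ± 0.22 (adjusted p = 0.0482) was not shared by the other 3 probes, which gave -0.15 to 0.14, and it lost the call when any array but WT injured replicate 1 was left out (0.55 to 0.72).

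Among the remaining beta subunits, which have structural roles, no probe passed the test. Psmb2 had the highest WT change, 0.41 ± 0.23 (adjusted p = 0.217), and Psmb1 the lowest in WT with -0.34 ± 0.24. In Mapk9 KO all 7 beta ring genes had negative values at their brightest probe, from -0.45 to -0.05.

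The immunoproteasome genes did not pass the test at their brightest probe in either genotype. Psmb8, which takes the place of Psmb5, was 9.95, 9.78 and 9.46 in WT control and 10.38, 9.80 and 10.01 in WT injured arrays. In Mapk9 KO it was 9.63, 9.79 and 9.66 in control and 10.20, 9.95 and 9.89 in injured arrays. Its change was 0.33 ± 0.23 in WT, where the groups overlapped, and 0.32 ± 0.17 in Mapk9 KO, where they did not (adjusted p = 0.327 and 0.166). The WT value was 0.17 without WT injured replicate 1 and 0.20 without WT control replicate 3.

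Psmb9, which takes the place of Psmb6, was 9.68, 10.21 and 9.42 in WT control and 10.04, 10.28 and 9.94 in WT injured arrays. It was 9.48, 9.79 and 9.59 in Mapk9 KO control and 9.61, 9.80 and 9.57 in Mapk9 KO injured arrays. Both pairs of groups overlapped, and the changes were 0.32 ± 0.24 and 0.04 ± 0.17, the sign in Mapk9 KO turning when single arrays were left out (-0.03 to 0.12) and the WT value running from 0.14 to 0.54.

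Psmb10, which takes the place of Psmb7, was the immunoproteasome gene with a call. Its brightest probe read 10.77, 11.10 and 10.40 in WT control and 10.52, 10.74 and 10.47 in WT injured arrays, which overlapped. In Mapk9 KO the same probe read 10.74, 11.13 and 10.53 in control and 9.996, 10.54 and 10.12 in injured arrays, which also overlapped, though barely. The change was -0.18 ± 0.23 in WT and -0.58 ± 0.22 in Mapk9 KO (adjusted p = 0.0567), the latter past the test with the replicate block (adjusted p = 0.0165). The WT value was -0.01 without WT control replicate 2 and -0.36 without WT control replicate 3.

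The second Psmb10 probe fell in Mapk9 KO from 10.64, 10.81 and 10.08 to 9.68, 10.01 and 9.75, by 0.70 ± 0.22 on the log2 scale (adjusted p = 0.0272). All injured arrays lay below all control arrays. The call was lost without Mapk9 KO control replicate 1 or 2 or injured replicate 1 or 3 (values between -0.66 and -0.55). In WT this probe changed by -0.06 ± 0.23.

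Psme1 and Psme2 encode the ring that activates the core particle without ATP. Psme1 was 11.23, 11.32 and 10.82 in WT control and 11.59, 11.77 and 11.29 in WT injured arrays, and 11.12, 11.34 and 11.18 in Mapk9 KO control and 11.30, 11.61 and 11.13 in Mapk9 KO injured arrays. Its changes of 0.43 ± 0.22 and 0.14 ± 0.19 did not pass (adjusted p = 0.194 and 0.612), and the groups overlapped in both genotypes. The WT value was 0.28 without WT control replicate 3, and the Mapk9 KO value ran from 0.00176 without Mapk9 KO injured replicate 2 to 0.25 without Mapk9 KO injured replicate 3. By replicate number, the WT injured array was the higher in 3 of 3 pairs (0.36, 0.45 and 0.47), and with the block the change still missed the test (adjusted p = 0.0949). Psme2 gave changes of -0.25 ± 0.20 in WT (-0.34 to -0.14 on leaving out single arrays) and -0.02 ± 0.17 in Mapk9 KO.

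**Figure D2:**
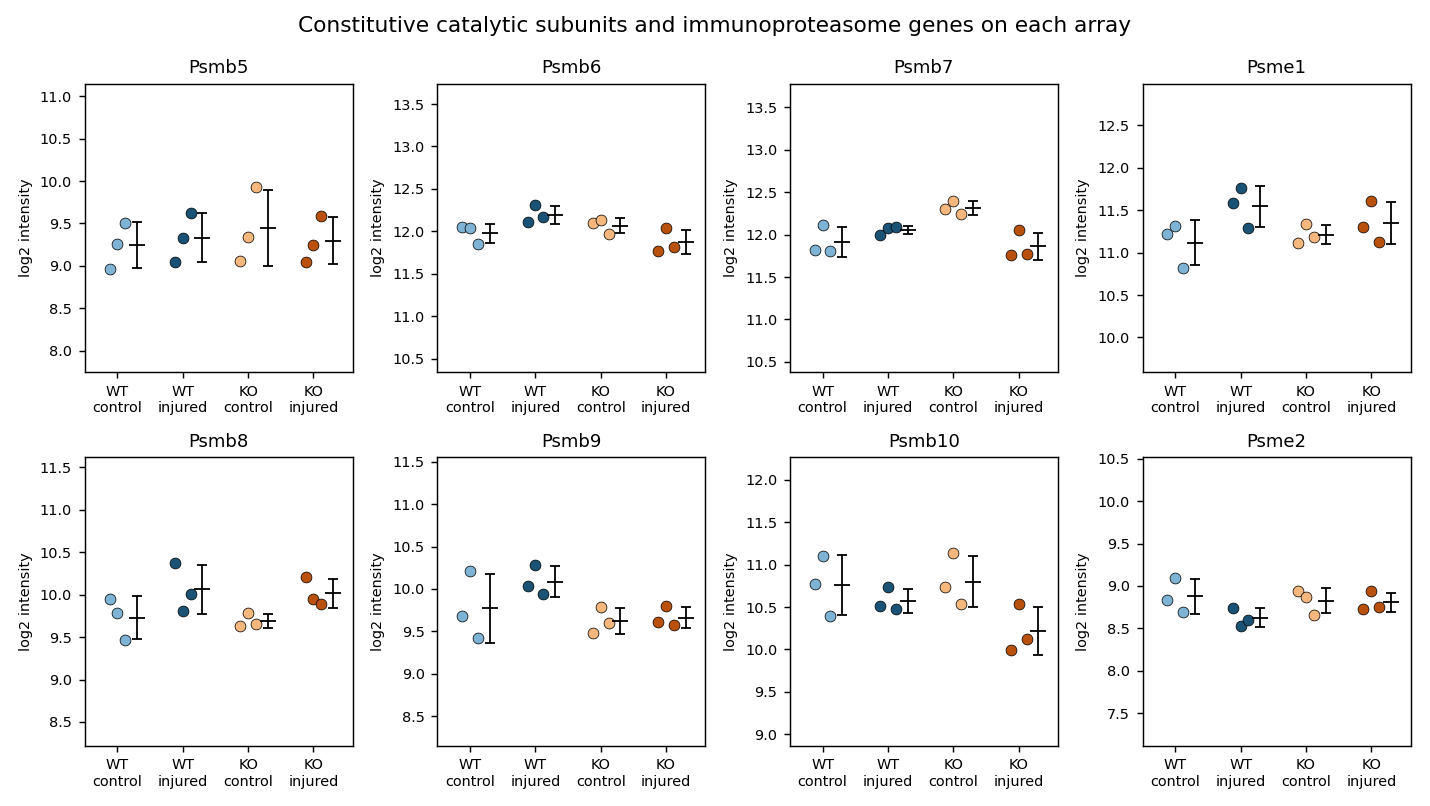
Log2 intensity (vertical axes, each spanning 3.4 units) on every array for the catalytic subunits Psmb5, Psmb6 and Psmb7 and for the immunoproteasome genes, at the brightest probe; points are arrays and the bar beside them is the mean ± SD (n = 3). Psmb7 and Psmb10 in Mapk9 KO have lower means in the injured group (-0.45 and -0.58). Psmb8 changes by 0.33 in WT (0.17 without WT injured replicate 1) and 0.32 in Mapk9 KO, and none of these passed the test.

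None of the measured genes that act with the immunoproteasome in presenting antigen on MHC class I rose past the test. Of 13 listed, 12 were measured. In WT 0 rose (12.6% of all probes) and 1 fell (8.33%, against 12.7% of all probes). In Mapk9 KO 0 rose (19.0% of all probes) and 3 fell (25.0%, against 19.3% of all probes). The list is short, and both shares that fell lie near the background. In WT the gene that fell was Nlrc5, the transactivator of MHC class I genes, by 0.85 ± 0.24 on the log2 scale (adjusted p = 0.0241). Among those that fell in Mapk9 KO, the peptide transporter Tap1 fell by 0.59 ± 0.21 (adjusted p = 0.047) and the interferon gamma receptor chain Ifngr2 by 1.27 ± 0.21 (adjusted p = 0.000724). The median of the list was -0.29 in WT and -0.11 in Mapk9 KO.

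The base of the regulatory particle is a ring of ATPases that unfolds substrates. None of its 8 probes passed the test in WT, where the brightest probes gave -0.25 to 0.23. In Mapk9 KO Psmc3 fell by 0.60 ± 0.20 on the log2 scale (adjusted p = 0.0351), from 11.12, 11.39 and 11.29 to 10.49, 11.02 and 10.52, and these groups did not overlap. The WT values were 10.98, 10.93 and 10.73 in control and 10.73, 10.92 and 10.89 in injured arrays, a change of -0.03 ± 0.19. The Mapk9 KO call was lost without control replicate 2 or 3 or injured replicate 1 or 3 (-0.58 to -0.50).

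A dim probe of Psmc2 also passed in Mapk9 KO at -0.64 ± 0.21 (adjusted p = 0.0358), but it was detected on only 4 of 12 arrays and on none of the Mapk9 KO injured arrays. Its fall is therefore a bound, at least 1.13-fold, and the brightest Psmc2 probe gave -0.25 ± 0.20. Leaving out control replicate 2 or 3 or injured replicate 1 or 2 ended this call (-0.67 to -0.48). All 5 ATPase genes measured had negative values in Mapk9 KO at the brightest probe, from -0.60 to -0.04.

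The other subunits of the regulatory particle recognise ubiquitin, remove it or hold the particle together. None of their 16 probes passed the test in WT. The highest WT value was that of Psmd11, a scaffold subunit, which stood at 7.72, 7.52 and 8.13 in control and 8.23, 8.30 and 8.77 in injured arrays. All its injured arrays lay above all control arrays, but the change of 0.64 ± 0.24 missed the test (adjusted p = 0.0747). In Mapk9 KO the groups overlapped, with 0.62 ± 0.33 (adjusted p = 0.172). With the replicate block Psmd11 passed the test in both genotypes (adjusted p = 0.0293 and 0.0261). Psmd14, the deubiquitinase, gave 0.51 ± 0.23 and 0.28 ± 0.21, and Psmd4, a ubiquitin receptor, 0.06 ± 0.23 and -0.27 ± 0.18, none past the test.

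Psmd13, a structural subunit of the lid, fell in Mapk9 KO by 0.75 ± 0.21 on the log2 scale (adjusted p = 0.0168). Its values were 12.45, 12.63 and 12.08 in Mapk9 KO control and 11.57, 11.94 and 11.41 in Mapk9 KO injured arrays, without overlap. In WT they were 12.44, 12.69 and 11.73 in control and 11.86, 12.27 and 11.86 in injured arrays, with WT control replicate 3 below all injured arrays, and the change was -0.29 ± 0.27. Without Mapk9 KO control replicate 2 or injured replicate 1 or 3 the Mapk9 KO value no longer passed (-0.71 to -0.62).

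Calls at 2 other lid or base genes came from dimmer probes alone. Psmd7, the partner of the deubiquitinase, had a probe that rose in Mapk9 KO from 7.27, 7.65 and 7.64 to 8.45, 8.31 and 8.45. That change of 0.88 ± 0.18 (adjusted p = 0.00275) was the only proteasome rise in Mapk9 KO and stayed past the test when any 1 array was left out. The same probe gave 0.55 ± 0.22 in WT (adjusted p = 0.0947, or 0.0466 with the replicate block). A second Psmd7 probe gave 0.45 ± 0.17 in Mapk9 KO (adjusted p = 0.0545, or 0.0422 with the replicate block) and the brightest -0.06 ± 0.17, so the probes of this gene disagreed.

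Psmd1, the large scaffold of the base, had a probe that fell in Mapk9 KO from 7.69, 8.29 and 8.29 to 6.66, 7.43 and 7.60. The change was -0.86 ± 0.27 (adjusted p = 0.0268), against -0.20 ± 0.17 at the brightest probe of the gene, and did not pass without control replicate 2 or 3 or injured replicate 1 (-0.76 to -0.57). In WT the values at these probes were 0.17 ± 0.20 and 0.07 ± 0.20.

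Psme4 encodes the large single-chain activator linked to histone degradation. Its dim probe fell in WT from 6.97, 6.21 and 6.74 to 5.67, 5.07 and 5.66, a change of -1.18 ± 0.26 (adjusted p = 0.00892). The probe was not detected on any WT injured array, so the fall is at least 1.74-fold. This call was kept when any 1 array was left out. At the brightest probe the WT values were 12.09, 12.43 and 11.85 in control and 11.68, 11.61 and 11.48 in injured arrays, again without overlap, and the change of -0.53 ± 0.21 missed the test (adjusted p = 0.097). In Mapk9 KO the brightest probe fell from 12.06, 12.35 and 11.93 to 11.38, 11.79 and 11.34, by 0.61 ± 0.20 on the log2 scale (adjusted p = 0.0312), a call lost without control replicate 1 or 2 or injured replicate 1 or 3 (-0.64 to -0.49). Both probes had negative values in both genotypes, and each passed the test in 1 genotype.

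Psmf1, an inhibitor of the core particle, fell in Mapk9 KO by 0.57 ± 0.19 on the log2 scale (adjusted p = 0.0334), from 11.13, 11.23 and 11.48 to 10.61, 10.96 and 10.56. It missed the test without control replicate 2 or 3 or injured replicate 1 or 3 (-0.60 to -0.47). In WT it changed by -0.02 ± 0.21, the injured arrays (10.93, 11.17 and 11.04) lying within the range of the controls (11.36, 10.96 and 10.89). Psme3, which encodes the nuclear activator, gave 0.06 ± 0.23 in WT and -0.46 ± 0.20 in Mapk9 KO (adjusted p = 0.0983).

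The largest changes at a brightest probe were those of assembly chaperones, which hold the ATPases of the base in place until the regulatory particle is complete. Psmd5 fell in WT from 7.87, 7.61 and 7.93 to 7.44, 6.16 and 6.50. All injured arrays were below all control arrays, although WT injured replicate 1 was only a little lower, and the change was -1.11 ± 0.31 (adjusted p = 0.0242), a level that fell by 53.6%. In Mapk9 KO the values were 7.65, 7.32 and 7.84 in control and 8.20, 7.29 and 8.05 in injured arrays, which overlapped (0.24 ± 0.25, adjusted p = 0.496). The difference between the genotypes' changes was 1.35 ± 0.43 and did not pass the test (adjusted p = 0.348). The WT call was lost without WT control replicate 1 or 3 or WT injured replicate 2 or 3, at values from -1.07 to -0.84. Without background correction the Psmd5 change in WT was only -0.57.

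Psmd9 fell in Mapk9 KO from 6.88, 7.32 and 7.96 to 6.02, 5.83 and 6.47, a change of -1.28 ± 0.28 (adjusted p = 0.00397), so that the level fell by 58.9%. The groups did not overlap, and the call was kept without any 1 array (-1.53 to -0.99). Of 9 other alternatives 1 lost it, and without background correction the Psmd9 change in Mapk9 KO was only -0.65. The injured values lay near the lowest level of a detected probe (5.62 to 6.05 over the arrays), so the size of the fall is uncertain. In WT it was 6.63, 6.59 and 6.82 in control and 5.86, 6.00 and 6.67 in injured arrays, a change of -0.50 ± 0.24 (adjusted p = 0.162) in which WT injured replicate 3 lay within the control range. The second Psmd9 probe, detected on 7 of 12 arrays, gave -0.50 ± 0.26 in WT and -0.48 ± 0.23 in Mapk9 KO. The Mapk9 KO controls were higher than the WT controls at the brightest probe by 0.71 ± 0.27, which did not pass (adjusted p = 0.702).

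Psmd10, known as gankyrin, fell in Mapk9 KO by 0.54 ± 0.19 on the log2 scale (adjusted p = 0.0487), from 10.72, 11.07 and 10.58 to 10.07, 10.46 and 10.22. These groups did not overlap, and the call was lost without control replicate 1 or 2 or injured replicate 1 or 3 (-0.58 to -0.40). In WT it was 10.54, 10.99 and 10.33 in control and 10.29, 10.38 and 10.25 in injured arrays, which overlapped (-0.32 ± 0.22). Its 3 probes gave -0.34 to -0.28 in WT and -0.54 to -0.28 in Mapk9 KO.

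**Figure D3:**
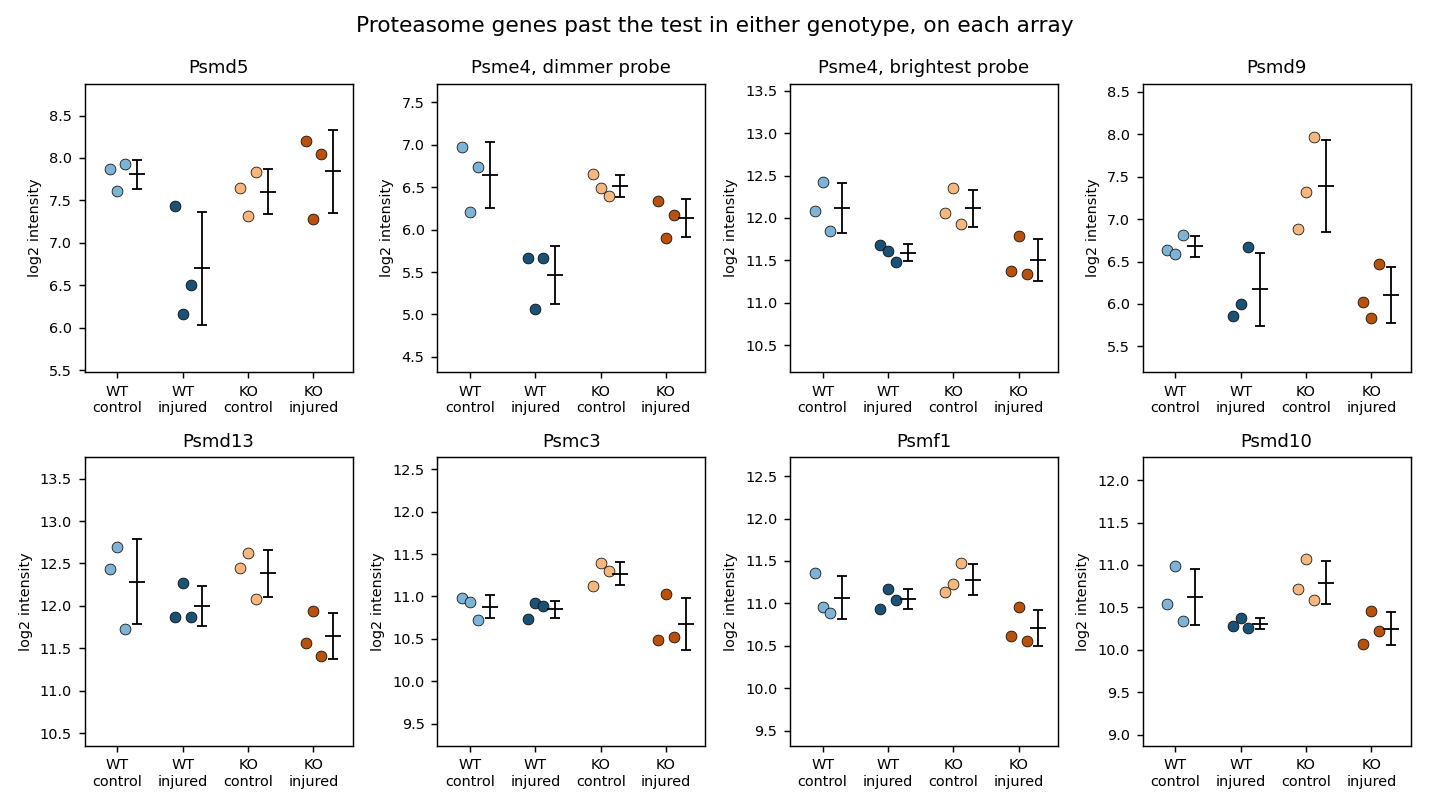
Log2 intensity (vertical axes, each spanning 3.4 units) on every array at the brightest probe of the 7 genes with a call there, and at the dimmer Psme4 probe; points are arrays and the bar beside them is the mean ± SD (n = 3). Psmd5 changed by -1.11 in WT (0.24 in Mapk9 KO), Psmd9 by -1.28 in Mapk9 KO, and both Psme4 probes have lower means after injury in both genotypes.

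Of the 39 genes, 19 had several probes, which served as repeated readings of 1 gene. The signs were the same at all probes for 14 of 19 genes in WT and 15 of 19 in Mapk9 KO. Psmb6 (0.22 and 0.24 in WT) and Psmb10 (-0.70 and -0.58 in Mapk9 KO) gave close values. The probes stood furthest apart for Psmd12 in WT, a lid subunit whose second probe was detected on no array, and for Psmd7 in Mapk9 KO, where they spanned 0.94 on the log2 scale.

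**Figure D4:**
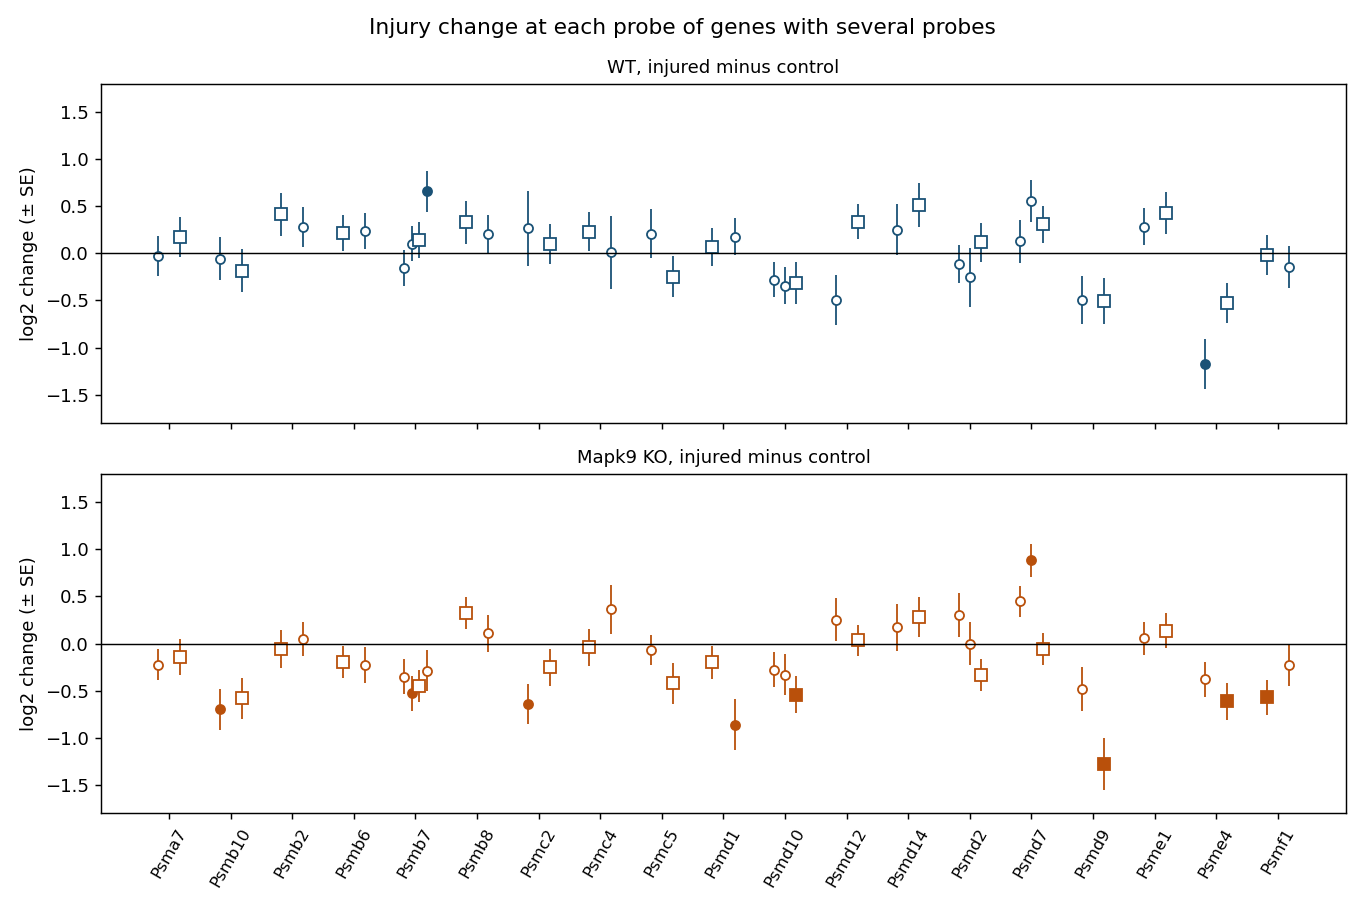
Log2 injury change ± SE (vertical axis) at each probe of the 19 genes with several probes, in WT (top) and Mapk9 KO (bottom); squares mark the brightest probe of a gene, circles the others, and filled symbols an adjusted p under 0.05. The filled circles of Psmb7 in WT (0.66) and Psmd7 in Mapk9 KO (0.88) stand apart from the other probes of those genes.

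Signs of the small changes differed between the genotypes. At the brightest probes 26 of 39 values were above 0 in WT (66.7%, against 48.2% of all probes) and 7 of 39 in Mapk9 KO (17.9%, against 48.7%). Over all 63 proteasome probes 61.9% of values were above 0 in WT and 25.4% in Mapk9 KO. The difference between the genotypes' changes was below 0 for 36 of 39 brightest probes (92.3%) and 50 of 63 probes (79.4%), against 51.9% of all probes. These genes share the same arrays and are not independent readings. The median deviation of the 39 genes from their own means was -0.25 on WT control replicate 3, against 0.04 and 0.08 on the other WT control arrays. It was 0.24 on Mapk9 KO control replicate 2, and -0.22 and -0.21 on Mapk9 KO injured replicates 1 and 3, against 0.09 on replicate 2. Replicate 2 had the highest value in all 4 groups, while the same median over all probes stayed between -0.04 and 0.05.

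The fall count in Mapk9 KO rested on these arrays. It was 10 with all arrays, 1 without Mapk9 KO control replicate 2, 1 without Mapk9 KO injured replicate 1 and 3 without Mapk9 KO injured replicate 3. The share of all probes that fell was 19.3% with all arrays and 15.2%, 15.7% and 15.9% on leaving out these arrays. In WT the median changed sign with neqc, from 0.07 to -0.04, whereas in Mapk9 KO it was -0.21.

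**Figure D5:**
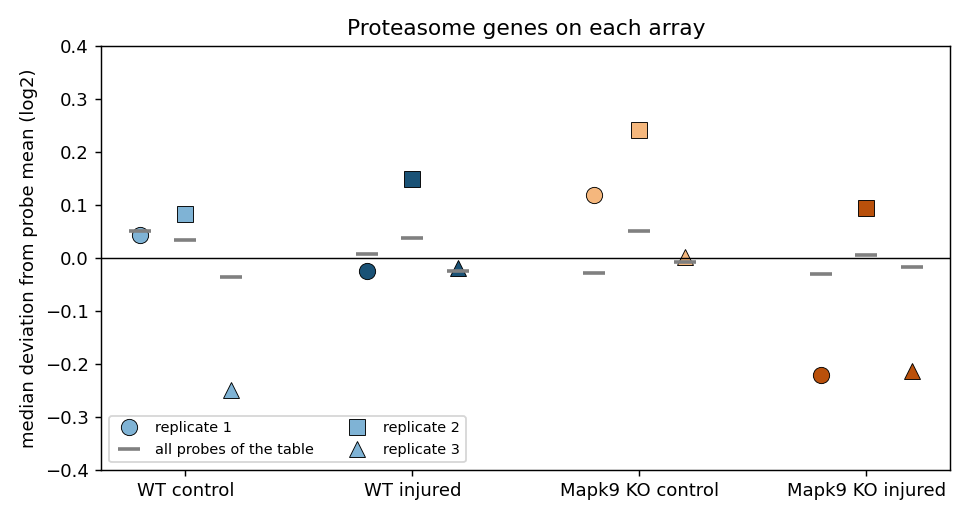
Median, over the 39 genes of the symbol rule, of each array's deviation from the gene's mean over all 12 arrays (vertical axis, log2), by group. Symbols mark the replicate number and grey bars the same median over all probes of the table. WT control replicate 3 (-0.25) and Mapk9 KO injured replicates 1 and 3 (-0.22 and -0.21) lie lowest, and Mapk9 KO control replicate 2 (0.24) highest.

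No proteasome probe passed the test between the genotypes. In control hips 0 of 63 passed limma's test (0.119% of all probes) and 4 had an unadjusted p under 0.05 (6.35%, against 6.46% of all probes), and in injured hips 0 passed (0.181% of all probes) and 7 had an unadjusted p under 0.05 (11.1%, against 12.6%). Of the difference between the genotypes' injury changes, 0 passed (0.0% of all probes) and 7 had an unadjusted p under 0.05 (11.1%, against 9.94%). In these fits, made without a block, all 3 shares lay near those of all probes. The last 7 were probes of Psmd5 (1.35), Psme4 (0.80 at the dim probe, undetected on all WT injured arrays and so not an exact value), Psmc3 (-0.56), Psmd1 (-1.03) and Psmb7 (3 probes, -0.94 to -0.59). With the replicate block 0 of 63 passed in each comparison, against 0.0905% (control hips), 1.3% (injured hips) and 0.533% (difference) of all probes. Proteasome probes with an unadjusted p under 0.05 then numbered 6, 13 and 16. The matching shares of all probes under the block are not given here. For the difference without a block, the 7 became 3 without Mapk9 KO injured replicate 1 and 11 without Mapk9 KO injured replicate 2. A call in 1 genotype and not in the other is thus not shown to be a difference between them.

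The median of the 63 probes was 0.15 between Mapk9 KO and WT in control hips and -0.09 in injured hips, where all probes had -0.01 and -0.04. These medians rested on single arrays. The control value was 0.06 without WT control replicate 3 and 0.07 without Mapk9 KO control replicate 2, and the injured value was -0.03 without Mapk9 KO injured replicate 1, -0.17 without WT injured replicate 1 and -0.16 without Mapk9 KO injured replicate 2. For the 5 immunoproteasome genes at the brightest probe the values ran from -0.15 to 0.09 in control hips and from -0.43 (Psmb9) to 0.18 (Psme2) in injured hips. Mapk9 KO control arrays also had the higher muscle marker levels given above, and the part of that difference in these values was not tested.

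Partners of the proteasome were followed in a list of 28 genes, of which 22 were measured. In WT 3 rose (13.6% of the list, against 12.6% of all probes) and 0 fell (12.7% of all probes). In Mapk9 KO 4 rose (18.2%, against 19.0% of all probes) and 0 fell (19.3%). Zfand2a, an arsenite-inducible protein that binds the proteasome, rose by 1.58 ± 0.20 in WT (adjusted p = 0.000348) and 1.92 ± 0.17 in Mapk9 KO (adjusted p = 1.27e-05). The stress transcription factor Nfe2l2 rose by 1.18 ± 0.21 (adjusted p = 0.00285) and 1.53 ± 0.19 (adjusted p = 9.41e-05).

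Nfe2l1, the transcription factor that restores proteasome genes when proteolysis is blocked, rose by 0.50 ± 0.17 in Mapk9 KO (adjusted p = 0.0369) and stood at 0.62 ± 0.21 in WT (adjusted p = 0.0558). Ddi2, the protease that activates it, rose in Mapk9 KO (adjusted p = 0.0185), at a probe detected on 0 of 3 control and 3 of 3 injured arrays, so that the rise is at least 1.28-fold. Pomp, the assembly factor of the core particle, gave 0.26 ± 0.23 and -0.31 ± 0.23, and the ubiquitin receptor Adrm1 0.55 ± 0.21 and 0.22 ± 0.18, none past the test. The median of the list was 0.34 in WT and 0.09 in Mapk9 KO.

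Since Nfe2l1 and Nfe2l2 act through the antioxidant response element, its core was looked for in RefSeq promoter windows on GRCm38.p6, from 250 bases before to 50 after the start. Windows were found for 34 of 39 symbols (36 windows). Of these, 14 genes held TGACNNNGC or TGAGNNNGC on either strand, 38.9% of windows against 27.8% of all 32851. TGACNNNGC stood in the windows of Psmb5, Psmb6, Psmd9, Psmd12 and Psme4, 13.9% of windows against 12.4% of all. The interferon-type motif, GAAA and GAAA with any 2 bases between them, was in 4 windows (Psmb3, Psmd4, Psmd9 and Psme1), 11.1% against 3.44% of all. The NF-kB type motif, GGG and CC with any 5 bases between them, was in 55.6% against 50.8%, and CCAAT in 33.3% against 37.4%, both strands being searched. A match only describes letters and is not a binding site.

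The bases before the start of Psmd5 and Psmd9 are shown for the chaperone genes with the largest changes. Capitals mark the matches, which are TGAGNNNGC on the opposite strand for Psmd5 (chr2:34870963-34871212, minus strand) and, for Psmd9 (chr5:123227940-123228189, plus strand), first the interferon-type motif and then TGACNNNGC.
Psmd5 promoter: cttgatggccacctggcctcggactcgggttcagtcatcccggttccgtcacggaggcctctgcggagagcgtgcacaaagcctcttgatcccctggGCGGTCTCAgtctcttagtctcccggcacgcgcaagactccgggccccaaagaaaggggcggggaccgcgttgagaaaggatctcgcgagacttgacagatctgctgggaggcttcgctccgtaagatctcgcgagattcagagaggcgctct
Psmd9 promoter: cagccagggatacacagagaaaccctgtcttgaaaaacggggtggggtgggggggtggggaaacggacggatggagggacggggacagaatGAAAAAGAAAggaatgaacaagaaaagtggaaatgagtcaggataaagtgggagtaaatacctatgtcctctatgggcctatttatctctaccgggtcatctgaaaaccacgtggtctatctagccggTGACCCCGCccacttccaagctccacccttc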

How the data were processed

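The 12 RNA samples were hybridised to Illumina mouse arrays, 1 array each. The authors corrected the background with negative control probes, normalized with vsn and deposited log2 intensities for 21004 of 45281 probes. The version of vsn and the genome build are not given in the sources used here. The deposited table without normalization holds mean bead intensity and a detection p-value per probe, which were used for detection and for the alternatives. Probe symbols were taken from the files and, for lists, updated by accession or older symbol.

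Groups were compared with limma 3.58.1 (lmFit, eBayes, R 4.3.3) on all 21004 probes, injury within the 6 arrays of a genotype, genotypes within control or injured hips, and the difference of changes over 12 arrays, with Benjamini-Hochberg adjustment. The p-values measure the spread between these pooled samples. The number of arrays limits the precision, and an exact permutation of 3 against 3 cannot go below 0.1. A fold against a group in which a probe was undetected is a lower bound, taken against the dimmest detected probe of each array. The scripts were tested on simulated arrays with 200 changed probes of 21004, fewer than were called after injury here. Of changes of 1 on the log2 scale, 21.4% were recovered for WT injury, 30.8% for Mapk9 KO injury and 16% for the difference of changes. For the genotypes these shares were 27.4% in control and 29.2% in injured hips. Of changes of 2, between 77.2% and 92.4% were recovered.

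Named genes were the immunoproteasome members and their counterparts, all members past the test, and up to 4 examples per list with the largest called changes. Further genes were named after their values were seen. The values of some listed genes are not reported here. The members and lists were chosen with earlier results of these data known. The replicate numbers were taken as pairing the samples, since deviations from group means correlated at 0.153 to 0.39 in all 18 pairs of the same number and at -0.289 to 0.0825 in 36 other pairs. Alternatives were other normalizations (neqc, offset 16, or quantile without background correction), array medians subtracted, a detection filter, all 12 arrays in 1 fit, the replicate number or the label-code number as a block, the methods' t-test, 1 probe per gene, and leaving out each array.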

Additional observations from a re-analysis of the deposited data

How the results depend on the processing

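Of the counts of proteasome probes past the test, those for the genotypes and for the difference of changes stayed at 0 under every alternative run for them (the methods' t-test and the single fit of all arrays were not run as alternatives for the difference of changes), except 1 rise in injured hips without WT injured replicate 1. In WT the rises (1) were 0 with neqc, the methods' t-test or 1 probe per gene, 2 without background correction or with all arrays in 1 fit, 3 with the replicate block or the label-code block, and 0 to 1 on leaving out single arrays. The WT falls (2, 12.7%) were 3 with neqc (13.4%), 6 without background correction (13.9%) and 0 by the methods' t-test (4.9%). They were 1 with 1 probe per gene (13.2%) and 1 to 2 on leaving out arrays (7.98% to 13.8%). The count was 1 when WT control replicate 1, WT injured replicate 2 or WT injured replicate 3 was dropped. WT falls with a fitted change over 2-fold numbered 2 (7.14%), of which the dim Psme4 probe is bounded only at 1.74-fold or more. They were 0 without background correction or by the methods' t-test, 1 with 1 probe per gene and 0 to 2 on leaving out arrays. In Mapk9 KO the rises (1) were 2 with neqc, without background correction or by the methods' t-test, 3 with the replicate block, 0 with 1 probe per gene and 1 to 3 on leaving out arrays. The Mapk9 KO falls (10, 19.3%) were 13 with neqc (21.4%), 8 with array medians subtracted (19.0%) and 17 without background correction (22.2%). They were 1 by the methods' t-test (13.8%), 6 with 1 probe per gene (20.8%) and 12 with the replicate block (22.6%). On leaving out arrays they were 1 to 11 (15.2% to 18.4%). The Mapk9 KO fall over 2-fold (1, 9.14%) became 0 without background correction or by the methods' t-test, and 0 to 2 on leaving out arrays. For falls over 2-fold the shares of all probes under the alternatives are not given here. For single genes, signs turned only for values that missed the test. Psmb7 in WT was -0.0785 with neqc and -0.0772 without background correction. On leaving out arrays Psmb5 ran from -0.0592 to 0.231 in WT and from -0.341 to 0.0983 in Mapk9 KO, Psmb9 in Mapk9 KO from -0.0344 to 0.121 and Psme2 in Mapk9 KO from -0.103 to 0.0381. The replicate block brought probes of Psmd11 and Psmd7 in both genotypes and of Psmb7 and Psmb10 in Mapk9 KO past the test and changed no other call. The causes were not tested. Dim probes limit the reading of Psme4, Psmc2 and Psmd9, where signals lay near background.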
